A study of Mus musculus with 20 samples.

Results

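The genes of the proteasome subunits were followed across normal mouse B cells and 2 kinds of B-cell lymphoma. The members were the rows of the raw count table whose symbol is Psma, Psmb, Psmc, Psmd or Psme followed by a number, without Psmb8, Psmb9, Psmb10 and pseudogenes, which gave 40 of 37620 genes. They comprise the 14 subunits of the core particle found in most cells (Psma1 to Psma7 and Psmb1 to Psmb7), 17 subunits of the regulatory particle, 3 chaperones that help to build its base, 4 activators and the tissue-restricted core subunits Psma8 and Psmb11. The groups were lymphomas of the VavPBcl2 model transduced with Myc (n = 8), lymphomas of the same model transduced with an empty vector (n = 8), and normal spleen (n = 4), all of the C57BL/6 background. In that model a Bcl2 transgene, which blocks apoptosis, is expressed in blood cells from the Vav promoter. Both lymphoma groups carry it. Every sample was enriched on magnetic beads for B220, the form of CD45 on B cells, and its polyadenylated RNA was sequenced on Ion Proton instruments. Age, the site of each lymphoma and whether replicates came from separate animals are not stated in the labels. The error behind each p-value is therefore that among the sequenced samples, part or all of which may be technical.

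The proteasome degrades proteins that carry ubiquitin chains. Its core particle is a barrel of alpha and beta rings in which Psmb5, Psmb6 and Psmb7 hold the proteolytic sites; lymphoid cells can exchange these for the immune subunits Psmb8, Psmb9 and Psmb10, which favour peptides that fit MHC class I. The regulatory particle caps the barrel: a base with a ring of ATPases (Psmc1 to Psmc6) unfolds the substrate, receptors such as Psmd4 bind ubiquitin, and a lid that holds the deubiquitinase Psmd14 removes the chain. B cells that secrete antibody depend strongly on this machine, and proteasome inhibitors are drugs against plasma cell cancer and some lymphomas.

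The libraries held 28.7 to 56.3 M gene counts each. Judged by run numbers, all 8 Myc lymphomas came from the earlier sequencing runs, with vector replicates 7 and 8 and normal replicates 2 to 4, while vector replicates 1 to 6 and normal replicate 1 came from later runs. Vector replicates 7 and 8 also carry a title prefix that no other sample has, so among vector lymphomas the run and the sample series cannot be told apart. The 13 protein genes of the mitochondrial genome held 4.80 to 21.0% of gene counts in earlier and 0.30 to 0.81% in later libraries. Results are therefore given also within the earlier runs (8 Myc, 2 vector and 3 normal samples) and with run as a term of the fit. Myc replicate 5 stood apart from the other Myc lymphomas, and the main counts and some of the folds are also given without it. The Myc transcript itself had 313 to 1646 CPM (median 909) in Myc lymphomas, 48.3 to 226 CPM (median 101) in vector lymphomas and 229, 218, 179 and 343 CPM in normal B cells (CPM, the count per 1 M counts of a library sized by TMM, the trimmed mean of M-values). Its log2 fold change was 3.05 for Myc over vector lymphomas (edgeR quasi-likelihood adjusted p = 1.2e-06) and 2.01 for Myc lymphomas over normal B cells (adjusted p = 0.0015); these counts may include the transduced copy. The B-cell list Cd79a, Cd79b, Ms4a1, Pax5 and Ptprc, all 5 detected in every group, summed to 1309.8 to 4590.5 CPM in Myc lymphomas, 3231 to 6078 CPM in vector lymphomas and 4211 to 4765 CPM in normal B cells. Ptprc is the gene of CD45, and gene counts do not separate its B220 form, so this sum may include other cells. Red-cell markers (6 of 6 detected, as were all lists below, none at 0) summed to 2971 to 52471 CPM in Myc lymphomas, 2070.2 to 10266 CPM in vector lymphomas and 116 to 1652 CPM in normal B cells. Neutrophil markers (7 genes) summed to 1599.6 to 16432 CPM in Myc lymphomas, 53.1 to 5748 CPM in vector lymphomas and 76.1 to 898 CPM in normal B cells, and NK-cell markers (6 genes) to 138 to 571 CPM in Myc lymphomas, 46.0 to 72.6 CPM in vector lymphomas and 134 to 223 CPM in normal B cells. Plasma-cell markers (5 genes) summed to 721 to 3801 CPM in Myc lymphomas, 4538 to 8001 CPM in vector lymphomas and 549 to 836 CPM in normal B cells, and plasmacytoid dendritic markers (6 genes) to 300.2 to 1982 CPM in Myc lymphomas, 569.6 to 794 CPM in vector lymphomas and 629 to 715 CPM in normal B cells. Of that last list Irf8 alone had 143 to 628 CPM in Myc and 529 to 707 CPM in vector lymphomas. Siglech had 44.6 to 260 CPM in Myc and 2.65 to 37.3 CPM in vector lymphomas. Siglech, Ccr9 and Bst2 were higher in every Myc than in every vector lymphoma. Klk1 and Cox6a2 overlapped, with higher medians in Myc lymphomas. T-cell markers (6 genes) summed to 441 to 921 CPM in Myc lymphomas, 344 to 588 CPM in vector lymphomas and 627 to 709.8 CPM in normal B cells, and macrophage markers (6 genes) to 195 to 512 CPM in Myc lymphomas, 304 to 504 CPM in vector lymphomas and 334 to 741 CPM in normal B cells. Red-cell and neutrophil sums were thus highest in Myc lymphomas and B-cell sums lowest there, with overlap between the lymphoma groups. For the B-cell sums the overlap came from Myc replicate 5 alone, with 4590.5 CPM. The other Myc lymphomas had 1309.8 to 2347 CPM, below every vector lymphoma and every normal sample. NK-cell sums were higher and plasma-cell sums lower in Myc than in vector lymphomas, with no overlap between those groups. Their part in the results below was not tested, and in such bulk samples more cells of a type and more RNA per cell cannot be told apart.

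Most proteasome subunit genes were called higher in Myc lymphomas than in vector lymphomas and than in normal B cells, none was called lower, and none was called between vector lymphomas and normal B cells. Of the 40 members, 39 passed the filter on low counts and were tested; Psmb11, with 7 counts in the 20 samples together, was not. Against vector lymphomas, 26 of 39 were called higher in Myc lymphomas and 0 lower, where 26.6% of the 17824 genes tested were called higher and 21.9% lower (edgeR quasi-likelihood test, Benjamini-Hochberg adjusted p under 0.05). The median log2 fold change of the members was 0.65, and that of all genes 0.085. Against normal B cells, 26 of 39 were also called higher and 0 lower, with backgrounds of 21.5% and 17.9% and a median of 0.83 (0.084 over all genes). Both comparisons use the same Myc samples; 23 members were called in both. The 10 members called in neither were Psma3, Psma8, Psmc4, Psmc6, Psmd4, Psmd10, Psmd11, Psme1, Psme2 and Psme4.

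Within sequencing runs fewer members were called, above all over vector lymphomas, of which the earlier runs hold 2. Within the earlier runs 19 of 39 members were called higher in 8 Myc lymphomas over 3 normal samples (background 12.7%, median 0.87), but only Psme3 over the 2 vector lymphomas there (background 2.97%, median 0.53). With a run term the counts were 25 over normal B cells (background 20.6%) and 9 over vector lymphomas (background 9.2%), the 9 being Psma5, Psmb2, Psmd1, Psmd3, Psmd6, Psmd7, Psmd9, Psmd13 and Psme3. With Myc replicate 5 left out of the earlier runs as well, 23 were called over normal B cells (background 17.1%) and 4 over vector lymphomas (Psma5, Psmd3, Psmd9 and Psme3; background 6.57%). With Myc replicate 5 left out and all other samples kept, 23 were called higher than in vector lymphomas (background 25.6%) and 1 lower, Psmd4 (background 23.3%). Psma4, Psmb1, Psmc5 and Psmd7 lost their call in that setting, and Psme4 gained one. Without scaling beyond the library total, which moved the median of all genes for Myc over normal samples to -0.11, 19 members were called higher in that comparison (background 16.6%).

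**Figure D1:**
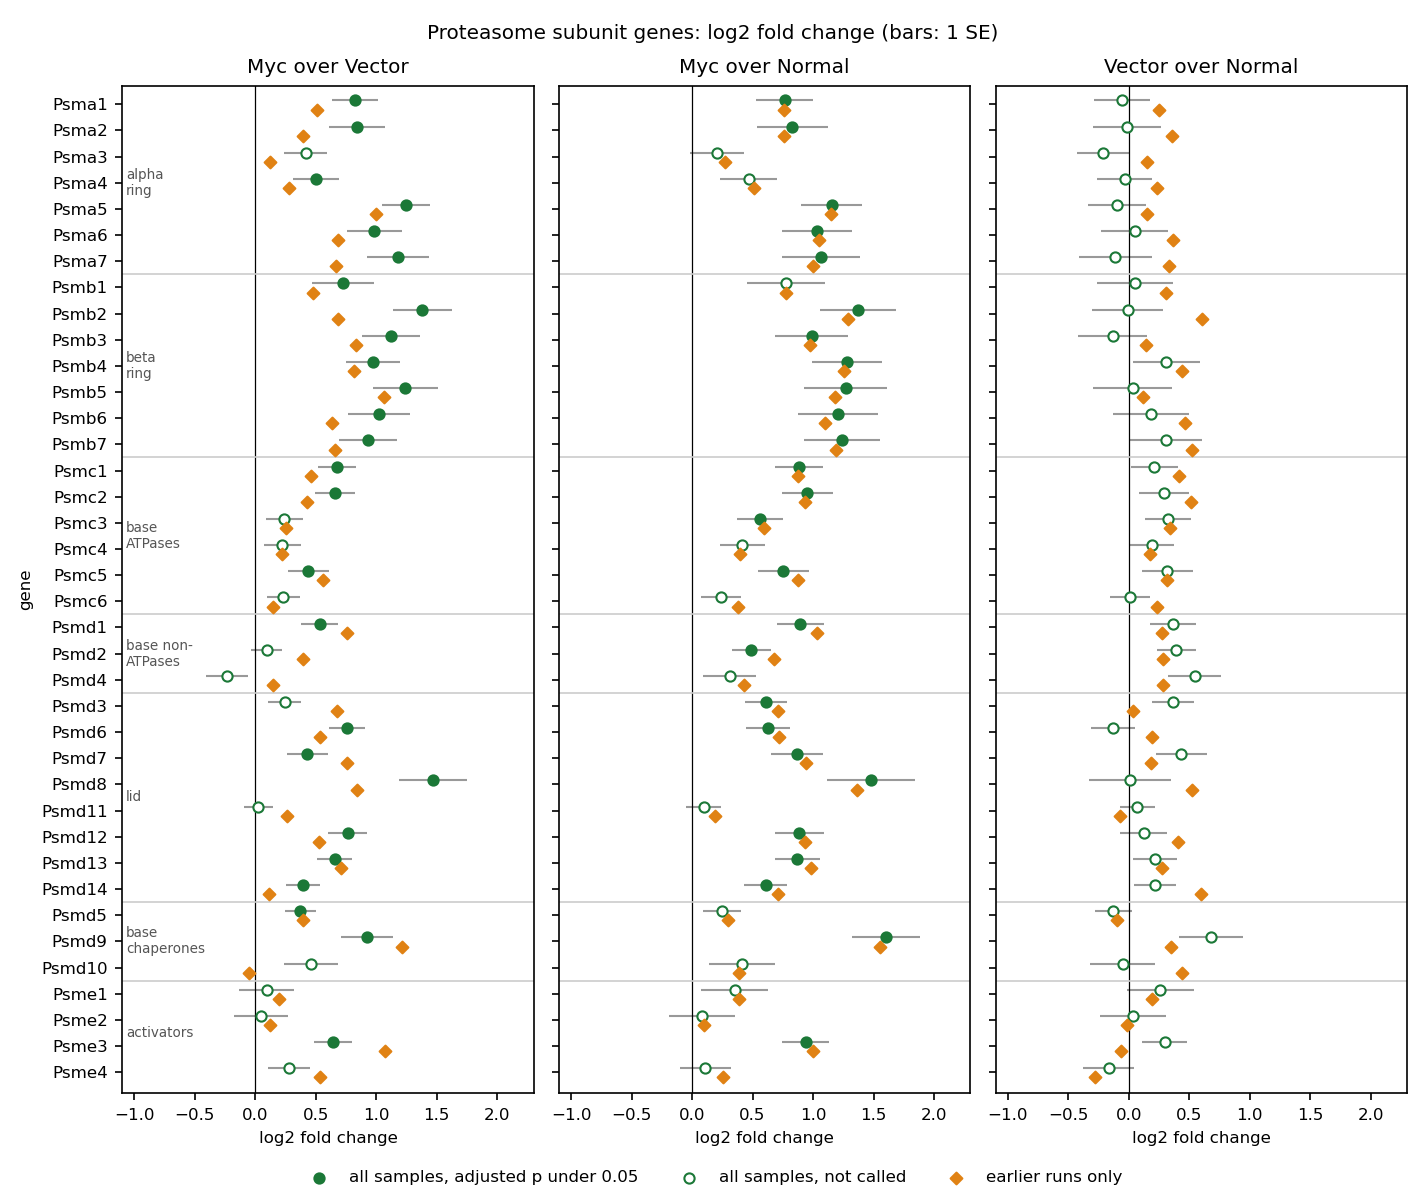
Log2 fold change (x axis) of 38 proteasome genes (y axis, by subcomplex) for Myc over vector lymphomas, Myc lymphomas over normal B cells and vector lymphomas over normal B cells; circles use all samples with bars of 1 SE, filled where called, and diamonds use the earlier sequencing runs only. In the first 2 panels nearly all points lie right of 0 and the beta ring lies farthest right, with Psmd8, Psmd9 and Psme3 beyond the other members of their groups (Psma8 and Psmb11 are not drawn), while in the third panel no circle is filled.

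In the alpha ring, which forms the gate and outer surface of the core particle, 6 of 7 genes were called higher in Myc than in vector lymphomas, with a median log2 fold change of 0.84, and 5 of 7 higher than in normal B cells (median 0.83). Psma5 had 44.6 to 140.2 CPM (median 61.8) in Myc lymphomas, 21.5 to 39.3 CPM (median 29.5) in vector lymphomas and 29.9, 34.7, 32.7 and 30.1 CPM in normal B cells. All 8 Myc lymphomas lay above every other sample, and Psma5 was 2.37-fold higher than in vector lymphomas (log2 1.25 ± 0.20, adjusted p = 4.7e-05) and 2.22-fold higher than in normal B cells (log2 1.15 ± 0.25, adjusted p = 0.0015). Psma7 had 129 to 479 CPM (median 167) in Myc lymphomas, 64.4 to 143 CPM (median 70.4) in vector lymphomas and 77.8, 112, 104 and 87.8 CPM in normal B cells. Here 6 of 8 Myc lymphomas exceeded every vector lymphoma and all 8 every normal sample. The log2 fold change was 1.18 ± 0.25, adjusted p = 0.00084 over vector lymphomas (0.66, adjusted p = 0.38 within the earlier runs) and 1.07 ± 0.32, adjusted p = 0.013 over normal B cells. Psma3, the alpha subunit with the smallest difference, had 46.6 to 111 CPM (median 53.5) in Myc lymphomas, 34.9 to 70.5 CPM (median 45.9) in vector lymphomas and 59.9, 54.5, 52.2 and 51.0 CPM in normal B cells. Its groups overlapped, and its log2 fold change was 0.42 ± 0.18, adjusted p = 0.057 over vector lymphomas, which passed the threshold without Myc replicate 3, 4 or 8 or vector replicate 7 (0.53, adjusted p = 0.016 without that vector lymphoma), and 0.21 ± 0.22, adjusted p = 0.47 over normal B cells. The other 4 alpha genes had log2 fold changes of 0.50 to 0.98 over vector lymphomas and 0.47 to 1.03 over normal B cells. Of these, Psma4 was not called over vector lymphomas without Myc replicate 5 (0.33, adjusted p = 0.078).

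The beta ring holds the proteolytic sites, and all 7 of its genes were called higher in Myc than in vector lymphomas (median log2 fold change 1.02), and 6 of 7 higher than in normal B cells (median 1.24), the exception being Psmb1 (0.78 ± 0.32, adjusted p = 0.06). Over vector lymphomas Psmb1 was not called without Myc replicate 5 (0.37, adjusted p = 0.061). Psmb2, a structural subunit, had 80.8 to 216 CPM (median 93.6) in Myc lymphomas, 26.1 to 78.8 CPM (median 37.3) in vector lymphomas and 34.2, 45.5, 50.7 and 45.4 CPM in normal B cells. No Myc lymphoma overlapped any other sample, and the gene was 2.60-fold higher than in vector lymphomas (log2 1.38 ± 0.24, adjusted p = 0.00014). Its level also split by run among the vector lymphomas: the vector lymphomas of the earlier runs had 63.7 and 78.8 CPM and those of the later runs 26.1 to 45.3 CPM, and the log2 fold change within the earlier runs was 0.68, adjusted p = 0.27. Psmb1, Psmb3 and Psmb4, also structural, had log2 fold changes of 0.72 to 1.120 over vector lymphomas and 0.78 to 1.28 over normal B cells.

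The subunits with catalytic sites were all called higher in Myc lymphomas in both comparisons. Psmb5, which cuts after hydrophobic residues and is the main target of proteasome inhibitors, had 41.6 to 180.3 CPM (median 58.3) in Myc lymphomas, 17.4 to 49.0 CPM (median 29.3) in vector lymphomas and 23.4, 39.1, 29.3 and 29.3 CPM in normal B cells. Of the 8 Myc lymphomas, 6 lay above every vector lymphoma and all 8 above every normal sample, and replicate 5 was far above the rest. The log2 fold change was 1.24 ± 0.27, adjusted p = 0.00091 over vector lymphomas and 1.27 ± 0.34, adjusted p = 0.0068 over normal B cells. Without Myc replicate 5 it was 0.91, adjusted p = 0.00069 over vector lymphomas and 0.96, adjusted p = 0.0036 over normal B cells. Psmb6, which cuts after acidic residues, had 80.0 to 336 CPM (median 109) in Myc lymphomas, 49.5 to 103 CPM (median 60.6) in vector lymphomas and 43.1, 64.8, 64.9 and 61.0 CPM in normal B cells. Psmb7, which cuts after basic residues, had 80.0 to 298 CPM (median 104) in Myc lymphomas, 52.3 to 104 CPM (median 69.0) in vector lymphomas and 48.8, 69.0, 59.9 and 54.8 CPM in normal B cells. For both, all Myc lymphomas lay above the normal samples while some overlapped the vector lymphomas. Psmb6 had log2 fold changes of 1.02 ± 0.26, adjusted p = 0.0027 over vector lymphomas and 1.205 ± 0.33, adjusted p = 0.007 over normal B cells. Those of Psmb7 were 0.93 ± 0.24, adjusted p = 0.0036 over vector lymphomas and 1.24 ± 0.31, adjusted p = 0.004 over normal B cells. Among samples of the earlier runs the 3 genes had 1.06, 0.64 and 0.66 over vector lymphomas, none called (adjusted p = 0.19, 0.44 and 0.43). Over normal B cells they had 1.18, 1.10 and 1.19 (adjusted p = 0.048, 0.064 and 0.05), of which Psmb5 alone was called.

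**Figure D2:**
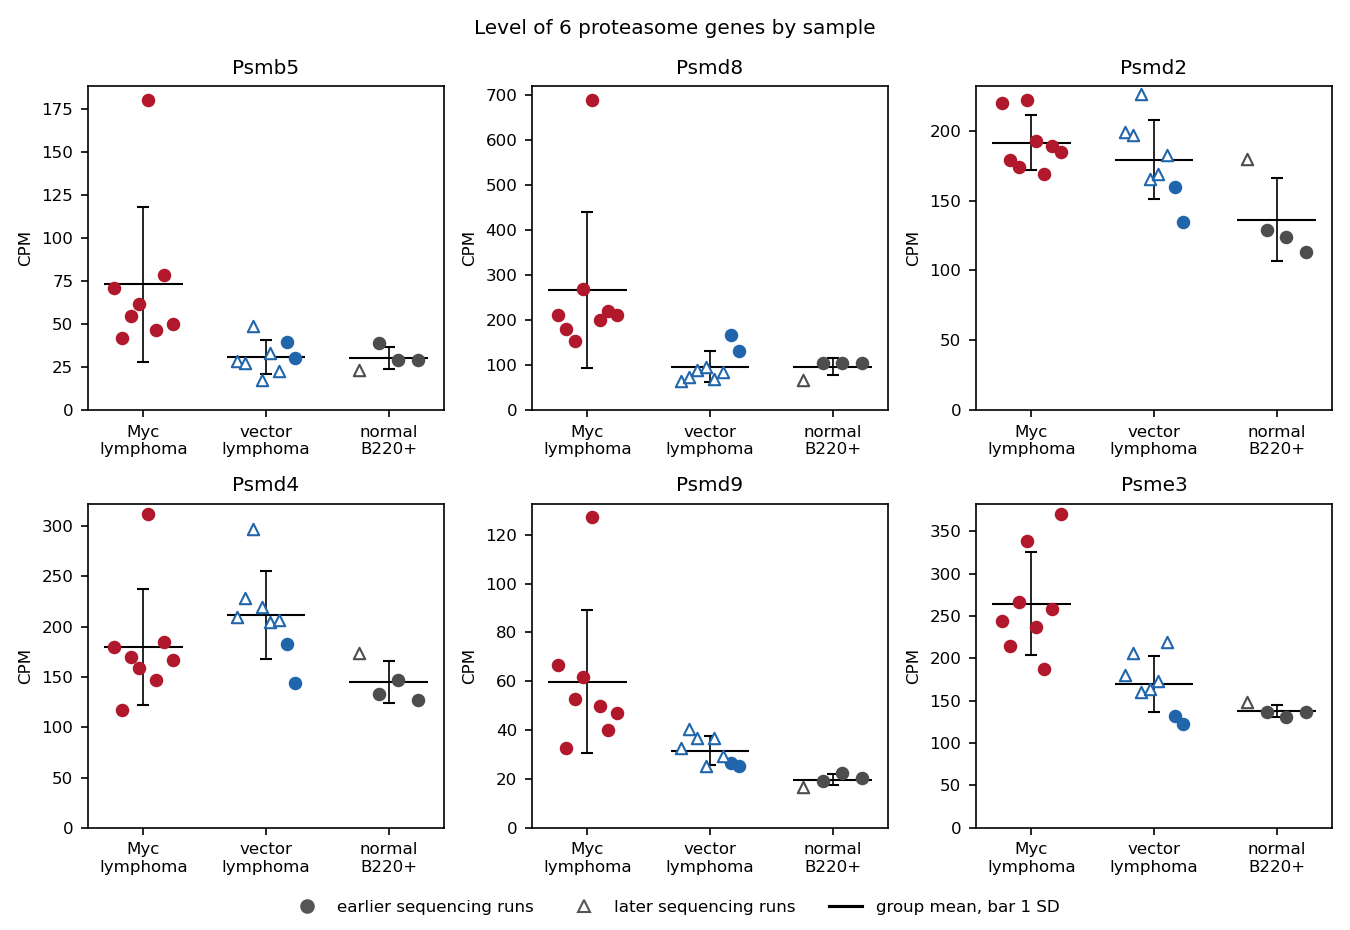
CPM (y axis) of Psmb5, Psmd8, Psmd2, Psmd4, Psmd9 and Psme3 in each sample of Myc lymphomas, vector lymphomas and normal B220+ cells (x axis); circles are earlier-run and triangles later-run samples, lines are group means and bars 1 SD. Psmd9 lies above every normal sample in all lymphomas, and among vector lymphomas Psmd8 is higher and Psmd2, Psmd4 and Psme3 are lower in the earlier-run samples.

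In the base of the regulatory particle, 4 of 9 genes were called higher in Myc than in vector lymphomas (median log2 fold change 0.24) and 6 of 9 higher than in normal B cells (median 0.56). Among the ATPases, 3 of 6 and 4 of 6 were called. Psmc2 had 79.3 to 179.9 CPM (median 95.3) in Myc lymphomas, 56.4 to 92.7 CPM (median 66.6) in vector lymphomas and 51.3, 60.4, 58.4 and 54.0 CPM in normal B cells. Its Myc lymphomas did not overlap the normal samples, and 4 of 8 lay above every vector lymphoma (log2 fold change 0.66 ± 0.17, adjusted p = 0.0028 over vector lymphomas and 0.95 ± 0.21, adjusted p = 0.0016 over normal B cells). Psmc5 had 83.02 to 202 CPM (median 92.2) in Myc lymphomas, 65.2 to 105 CPM (median 79.7) in vector lymphomas and 77.4, 62.3, 59.9 and 57.9 CPM in normal B cells. Its log2 fold change was 0.44 ± 0.17, adjusted p = 0.038 over vector lymphomas, a call that was lost without Myc replicate 5 (0.26, adjusted p = 0.072) and without 9 other samples, each left out alone, and 0.76 ± 0.21, adjusted p = 0.0088 over normal B cells. Psmc6 was the ATPase with the smallest difference over normal B cells (0.24 ± 0.17, adjusted p = 0.26). The ATPases Psmc1, Psmc3 and Psmc4 had log2 fold changes of 0.22 to 0.67 over vector lymphomas and 0.42 to 0.89 over normal B cells, and Psmc1 was called in both comparisons.

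The large scaffold and ubiquitin-binding subunits of the base had the smallest median log2 fold change over vector lymphomas of any subcomplex in the fit of all samples (0.095, 1 of 3 called). Psmd1, a scaffold, had 103 to 245 CPM (median 129.5) in Myc lymphomas, 78.6 to 112 CPM (median 104) in vector lymphomas and 93.7, 75.6, 70.7 and 68.4 CPM in normal B cells. Of the 8 Myc lymphomas 7 lay above every vector lymphoma and all above the normal samples (log2 fold change 0.53 ± 0.15, adjusted p = 0.0078 over vector lymphomas and 0.89 ± 0.20, adjusted p = 0.0015 over normal B cells). Psmd2, its partner scaffold, had 169 to 222 CPM (median 187) in Myc lymphomas, 134 to 226 CPM (median 176) in vector lymphomas and 179.5, 129, 124 and 113 CPM in normal B cells. No Myc lymphoma lay above the highest vector lymphoma, and the log2 fold change was 0.095 ± 0.13, adjusted p = 0.56 over vector lymphomas but 0.49 ± 0.16, adjusted p = 0.021 over normal B cells, a call lost without normal replicate 2, 3 or 4 (0.43, adjusted p = 0.095 without the last of these). Psmd4, a ubiquitin receptor, had 118 to 312 CPM (median 169) in Myc lymphomas, 144 to 298 CPM (median 208) in vector lymphomas and 174, 133, 147 and 127 CPM in normal B cells. It was the 1 member whose log2 fold change over vector lymphomas was below 0 (-0.24 ± 0.17, adjusted p = 0.27). It was called lower without Myc replicate 5 (-0.39, adjusted p = 0.024) and was above 0 within the earlier runs (0.15, adjusted p = 0.81) and with the run term (0.11, adjusted p = 0.79). Its vector lymphomas of the later runs had 204.6 to 298 CPM and those of the earlier runs 144 and 183 CPM.

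In the lid, 6 of 8 genes were called higher in Myc than in vector lymphomas (median log2 fold change 0.54) and 7 of 8 higher than in normal B cells (median 0.75). Psmd8, a lid scaffold subunit, had 153 to 689 CPM (median 211) in Myc lymphomas, 65.0 to 167 CPM (median 87.0) in vector lymphomas and 67.6, 105, 105 and 105 CPM in normal B cells. Of the 8 Myc lymphomas 7 lay above every vector lymphoma, and its fold of 2.76 was the largest of the called members in that comparison (log2 1.47 ± 0.28, adjusted p = 0.00029). The log2 fold change was 0.84, adjusted p = 0.31 within the earlier runs and 1.11, adjusted p = 0.00011 without Myc replicate 5. Over normal B cells it was 1.48 ± 0.36, adjusted p = 0.0033. The earlier-run vector lymphomas had 131 and 167 CPM, above the 65.0 to 94.5 CPM of the later runs, and the same was true of normal replicates 2 to 4 over replicate 1. Psmd14, the deubiquitinase, had 47.6 to 78.8 CPM (median 63.5) in Myc lymphomas, 31.5 to 67.0 CPM (median 46.9) in vector lymphomas and 47.1, 42.7, 40.2 and 36.0 CPM in normal B cells. It was called in both comparisons (0.39 ± 0.14, adjusted p = 0.026 over vector lymphomas and 0.61 ± 0.18, adjusted p = 0.01 over normal B cells), the first call being lost without Myc replicate 1, 4 or 7 or vector replicate 5 (0.34, adjusted p = 0.069 without Myc replicate 7). Psmd11, a structural lid subunit, had 53.7 to 81.3 CPM (median 58.8) in Myc lymphomas, 49.3 to 71.6 CPM (median 65.0) in vector lymphomas and 66.8, 55.5, 58.6 and 57.6 CPM in normal B cells. Its groups overlapped and it was the tested member with a value nearest 0 over vector lymphomas (log2 fold change 0.024 ± 0.12, adjusted p = 0.88), with 0.10 ± 0.14, adjusted p = 0.61 over normal B cells; the sign over vector lymphomas changed in several alternatives. The other lid genes, Psmd3, Psmd6, Psmd7, Psmd12 and Psmd13, had log2 fold changes of 0.24 to 0.76 over vector lymphomas and 0.61 to 0.88 over normal B cells. All were called but Psmd3 over vector lymphomas. The call of Psmd7 over vector lymphomas was lost without Myc replicate 1, 3, 5 or 7, each left out alone. Leaving out any 1 vector lymphoma but replicate 3 also removed it. The Psmd7 call was lost as well without scaling, without the filter and in a fit of the lymphoma groups alone, but kept with the run term.

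Of the 3 base chaperones, which hold ATPases during assembly and leave before the particle is complete, Psmd9 differed most. It had 32.7 to 127 CPM (median 51.4) in Myc lymphomas, 25.2 to 40.3 CPM (median 30.9) in vector lymphomas and 16.9, 19.2, 22.3 and 20.3 CPM in normal B cells. All 16 lymphomas lay above all 4 normal samples, and 6 of 8 Myc lymphomas above every vector lymphoma. Its 3.04-fold difference over normal B cells was the largest of the members called in that comparison (log2 1.60 ± 0.28, adjusted p = 0.00021; 1.56, adjusted p = 0.0085 within the earlier runs). It was 1.89-fold higher than in vector lymphomas (log2 0.92 ± 0.21, adjusted p = 0.0015; 1.21, adjusted p = 0.09 within the earlier runs). Vector lymphomas over normal B cells had 0.68 ± 0.27, adjusted p = 0.11. Psmd5 had 38.7 to 70.7 CPM (median 53.2) in Myc lymphomas, 35.6 to 48.9 CPM (median 41.1) in vector lymphomas and 47.7, 47.5, 49.1 and 37.6 CPM in normal B cells. It was called over vector lymphomas (0.37 ± 0.13, adjusted p = 0.019; 0.32, adjusted p = 0.061 without Myc replicate 7) and not over normal B cells (0.25 ± 0.16, adjusted p = 0.21). Psmd10, also known as gankyrin, had 18.6 to 51.7 CPM (median 24.8) in Myc lymphomas, 11.3 to 37.0 CPM (median 18.3) in vector lymphomas and 18.4, 22.5, 20.4 and 20.2 CPM in normal B cells. It was called in neither comparison (0.46 ± 0.22, adjusted p = 0.089 over vector lymphomas and 0.41 ± 0.27, adjusted p = 0.24 over normal B cells). It passed over vector lymphomas without vector replicate 7 (0.66, adjusted p = 0.0091).

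The activators are caps that replace the regulatory particle on the core, and 1 of 4 was called higher in Myc lymphomas in both comparisons. Psme3, the nuclear activator, had 188 to 369.8 CPM (median 251) in Myc lymphomas, 122 to 219 CPM (median 168) in vector lymphomas and 148, 137, 131 and 137 CPM in normal B cells. Of the 8 Myc lymphomas 6 lay above every vector lymphoma and all above the normal samples. Its log2 fold changes were 0.64 ± 0.15, adjusted p = 0.0019 over vector lymphomas and 0.94 ± 0.19, adjusted p = 0.00095 over normal B cells. It was the 1 member called over vector lymphomas within the earlier runs (1.07, adjusted p = 0.037), where its Myc and vector samples did not overlap. Without Myc replicate 5 it was 0.67, adjusted p = 0.0011 over vector lymphomas. Psme1 and Psme2, which form the cytoplasmic activator induced by interferon-gamma, were not called. Psme1 had 212 to 751 CPM (median 261) in Myc lymphomas, 212 to 377 CPM (median 291) in vector lymphomas and 257, 229.6, 268 and 230.1 CPM in normal B cells. Its log2 fold changes were 0.092 ± 0.22, adjusted p = 0.75 over vector lymphomas and 0.35 ± 0.28, adjusted p = 0.32 over normal B cells. Psme2 had 73.7 to 302 CPM (median 115) in Myc lymphomas, 91.7 to 170.3 CPM (median 140.1) in vector lymphomas and 128, 124, 145 and 115 CPM in normal B cells. The log2 fold change was 0.047 ± 0.22, adjusted p = 0.87 over vector lymphomas and 0.084 ± 0.27, adjusted p = 0.82 over normal B cells, and the groups of both genes overlapped. A near-identical copy of Psme2, Psme2b, has a row of its own outside the rule (log2 fold change 0.26 over vector lymphomas and -0.21 over normal B cells, not called). Reads with more than 1 alignment were not counted to genes, so reads that match both may be missing from each. Psme4, a nuclear activator active in spermatids, had 46.6 to 121 CPM (median 86.2) in Myc lymphomas, 57.5 to 97.2 CPM (median 71.0) in vector lymphomas and 98.7, 80.8, 70.9 and 74.7 CPM in normal B cells. Its groups overlapped and it was not called (0.28 ± 0.17, adjusted p = 0.19 over vector lymphomas), but passed without Myc replicate 5 (0.37, adjusted p = 0.037).

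The tissue-restricted core subunits were near the floor. Psma8, of the testis, had 0.118 to 1.90 CPM (median 0.717) in Myc lymphomas, 0 to 0.655 CPM (median 0.191) in vector lymphomas and 0.158, 0.619, 0.165 and 0.230 CPM in normal B cells, with overlapping groups and no call (1.47 ± 0.76, adjusted p = 0.11 over vector lymphomas). Psmb11, of the cortical epithelium of the thymus, had 7 counts in all.

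**Figure D3:**
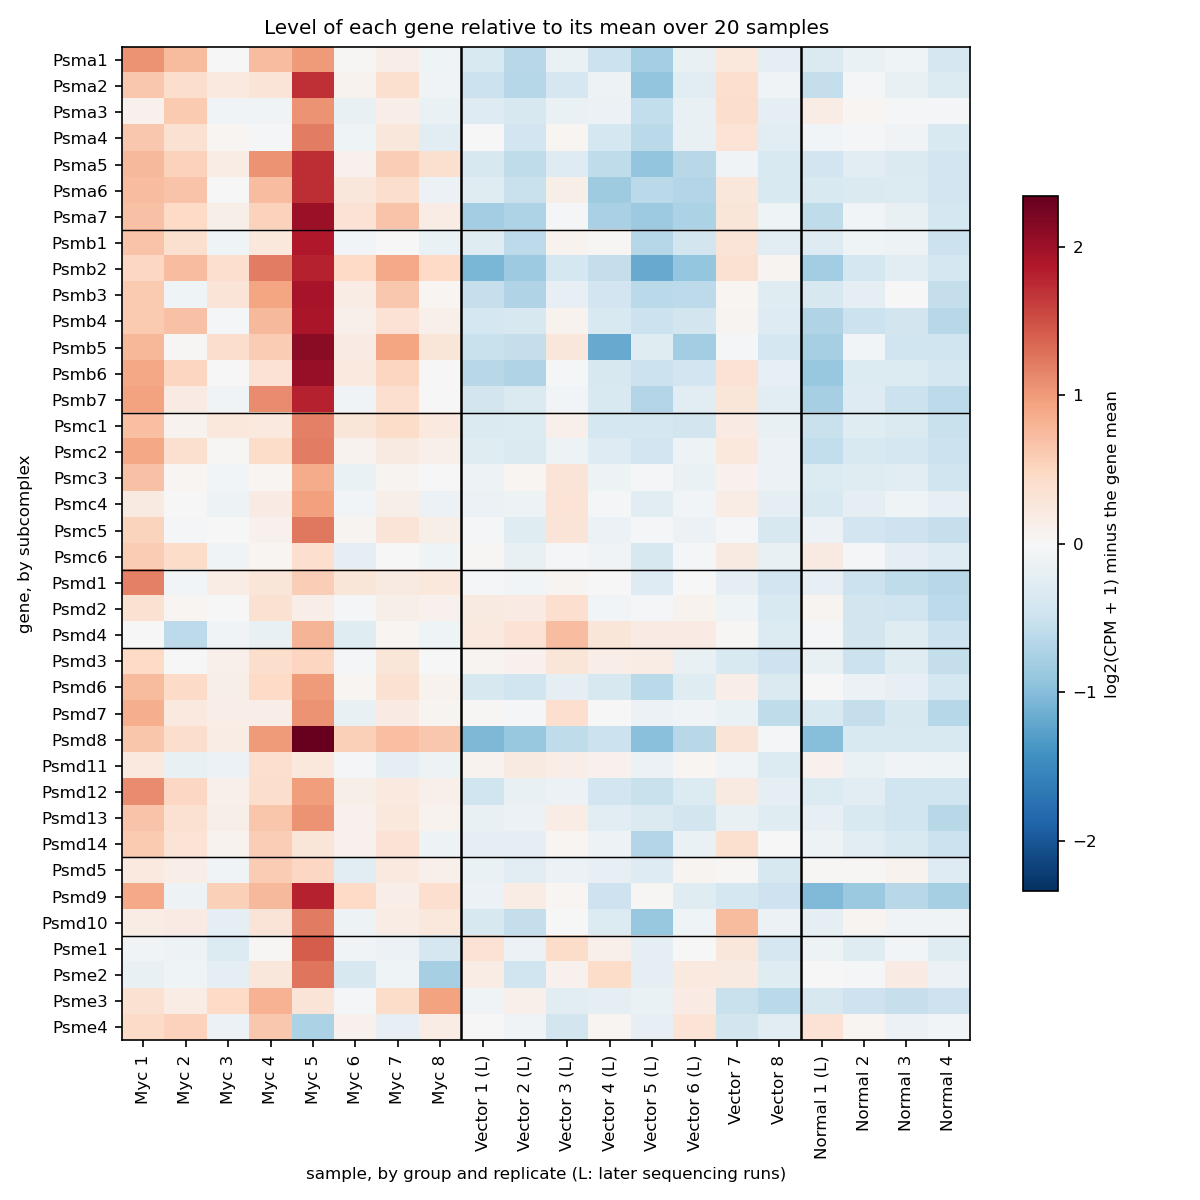
Log2(CPM + 1) of 38 proteasome genes (y axis, by subcomplex, from the alpha ring at the top to the activators) in each of 20 samples (x axis, Myc lymphomas, vector lymphomas, normal B cells), as the difference from the gene's mean over all samples; L marks later sequencing runs. The darkest red cells are those of Myc replicate 5, in Psmd8, Psmd9 and most core rows, and vector replicate 7 is the highest vector lymphoma in most core rows.

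Core genes varied more between samples than regulatory particle genes in each group. The median coefficient of variation of core genes was 53.0% in Myc lymphomas, 24.1% in vector lymphomas and 13.6% in normal B cells. For regulatory particle genes it was 29.8% in Myc lymphomas, 16.2% in vector lymphomas and 12.2% in normal B cells. Without Myc replicate 5 the Myc values were 22.8% for the core and 18.3% for the regulatory particle. The core value then lay below that of all vector lymphomas. It lay above that of the 6 later-run vector lymphomas, which had 18.2% for the core and 13.1% for the regulatory particle. Myc replicate 5 was the highest Myc lymphoma for 28 of 39 members, 13 of 14 in the core and 11 of 17 in the regulatory particle. The same sample had the least Myc transcript of the Myc lymphomas (313 CPM). In that sample genes with transcripts under 1000 bases, leaving out the members and the ribosomal and mitochondrial genes, held 32.9% of gene counts, against 11.2 to 14.8% in the other 7 Myc lymphomas, and red-cell markers summed to 52471 CPM, the highest of all samples; their part was not tested. Psmd2 was the steadiest member among Myc lymphomas, with a coefficient of variation of 10.4%. Among vector lymphomas replicate 7, of the earlier runs, was the highest for 20 of 39 members, 12 of them in the core.

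Summed over the 14 genes, the core particle averaged 1914 ± 971 CPM in Myc lymphomas, 996 ± 227 CPM in vector lymphomas and 975 ± 98.4 CPM in normal B cells (SD, n = 8, 8 and 4). The 17 regulatory particle genes averaged 2244 ± 598 CPM in Myc lymphomas, 1679.5 ± 181 CPM in vector lymphomas and 1383 ± 102 CPM in normal B cells. The core sum ranged over 1243 to 4214 CPM in Myc lymphomas and 755 to 1455 CPM in vector lymphomas, and was 886, 1068, 1052 and 894 CPM in normal B cells. The regulatory particle sum ranged over 1821 to 3542 CPM in Myc lymphomas and 1449 to 2046 CPM in vector lymphomas, and was 1507, 1377, 1392 and 1258 CPM in normal B cells. All Myc lymphomas lay above all normal samples in both sums, while both sums of Myc and vector lymphomas overlapped. The ratio of group means for Myc over vector lymphomas was 1.92 for the core and 1.34 for the regulatory particle. Without Myc replicate 5 these ratios were 1.59 and 1.23. In the earlier runs alone they were 1.53 and 1.38. Over normal B cells the ratios were 1.96 and 1.62 in all samples and 1.90 and 1.67 in the earlier runs.

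The median difference over vector lymphomas was larger for core genes than for those of the regulatory particle, but this gap was smaller within sequencing runs. The median log2 fold change was 0.98 for the core (13 of 14 called) and 0.43 for the regulatory particle (10 of 17 called), a gap of 0.55. The gap was 0.41 when only Myc replicate 5 was left out, 0.20 within the earlier runs, 0.22 with the run term and 0.035 within the earlier runs without Myc replicate 5. Over normal B cells the medians were 1.05 (11 of 14) and 0.63 (13 of 17), a gap of 0.42. That gap was 0.30 within the earlier runs, 0.20 when only Myc replicate 5 was left out, 0.21 with the run term and 0.033 within the earlier runs without Myc replicate 5. Per sample, the ratio of the core sum to the regulatory particle sum averaged 0.821 ± 0.167 in Myc lymphomas, 0.593 ± 0.113 in vector lymphomas and 0.708 ± 0.0843 in normal B cells (SD). It lay at 0.661 to 1.19 in the Myc lymphomas. In vector lymphomas it was 0.805 and 0.723 in the 2 samples of the earlier runs and 0.485 to 0.576 in the 6 of the later runs. In normal B cells it was 0.775, 0.756 and 0.711 in the earlier runs and 0.588 in the later run. Thus every later-run sample lay below every earlier-run sample, and the ratio of means for Myc over vector lymphomas was 1.39 in all samples and 1.07 in the earlier runs.

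Transcript length also moved with the fold changes. Core transcripts had a median length of 1120 bases and regulatory particle transcripts 1591 bases. Over all tested genes the median log2 fold change for Myc over vector lymphomas was 0.85 for transcripts under 1000 bases, 0.39 at 1000 to 1500, 0.08 at 1500 to 2500 and -0.23 above. Of the members at 1000 to 1500 bases, 6 core genes had a median of 0.95 and 5 regulatory particle genes 0.44; within the earlier runs the medians were 0.66 and 0.53, against 0.20 for all genes of that length. At that length the medians of both particles lay above that of all genes. At 1500 to 2500 bases, 2 core genes had 0.57 and 10 regulatory particle genes 0.41, and 0.30 and 0.44 within the earlier runs. Above 2500 bases, 1 core gene had 0.84 and 2 regulatory particle genes 0.31, and 0.40 and 0.58 within the earlier runs. Over normal B cells the medians were 1.11 and 0.63 at 1000 to 1500 bases, 0.49 and 0.74 at 1500 to 2500 and 0.83 and 0.69 above. The part of length in the gap between the particles was not tested.

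**Figure D4:**
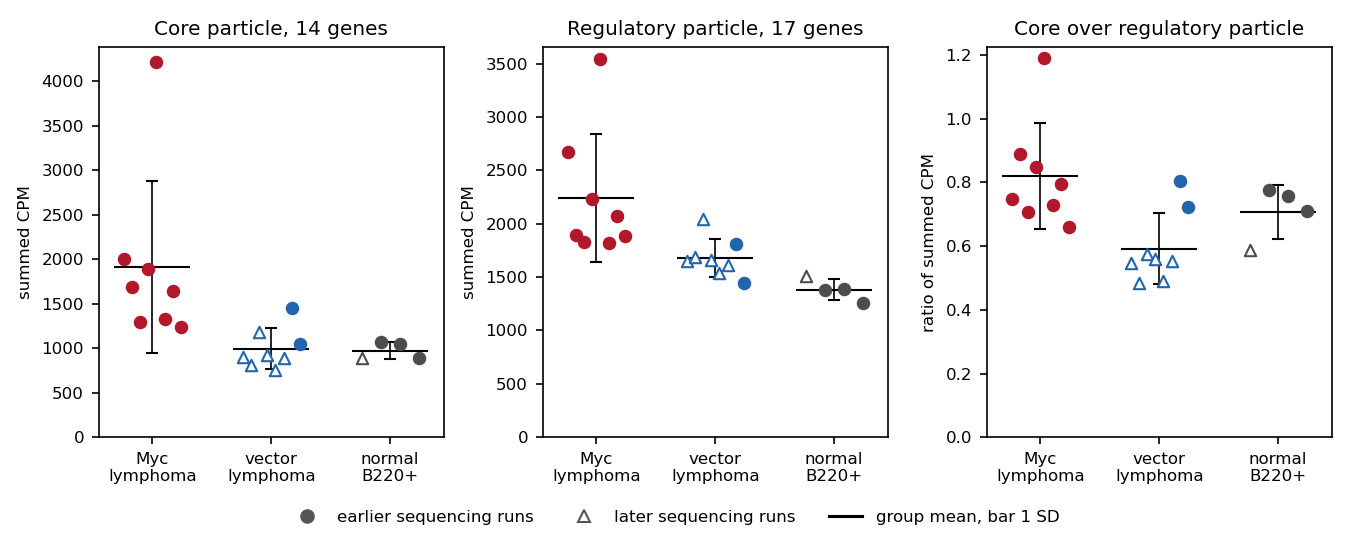
Summed CPM of the 14 core particle genes and of the 17 regulatory particle genes, and the ratio of the sums (y axes), in each sample of Myc lymphomas, vector lymphomas and normal B220+ cells (x axis); circles are earlier-run and triangles later-run samples, lines are group means and bars 1 SD. In the ratio panel all later-run triangles lie below all earlier-run circles.

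Vector lymphomas and normal B cells, whose comparison asks what differs in the lymphoma without added Myc, gave no member past the threshold. By edgeR 0 of 39 tested members were called higher and 0 lower, where 7.46% of all genes were called higher and 3.36% lower. DESeq2 also called 0, and 4 members (Psmd2, Psmd3, Psmd4 and Psmd9) had an unadjusted p under 0.05. The median log2 fold change was 0.072, with -0.011 for the core and 0.22 for the regulatory particle. Psmc3 and Psmd9 had no vector lymphoma at or below any normal sample, where 7.33% of all genes had none. Psmc3, an ATPase, had 134 to 277 CPM (median 155) in Myc lymphomas, 134 to 186 CPM (median 141) in vector lymphomas and 119.7, 122, 126 and 108 CPM in normal B cells, and its log2 fold change was 0.32 ± 0.19, adjusted p = 0.3. A fit of these 2 groups alone called 3 members higher, Psmc3, Psmd4 and Psmd9 (background 12.6%), and without normal replicate 1 Psmd2 was called (0.61, adjusted p = 0.046). The members nearest 0 were Psmc6 (0.0079 ± 0.17) and Psmb2 (-0.0095 ± 0.29), though Psmb2 reached 0.61 within the earlier runs. There the median of the members was 0.28, with 0 called (background 0.621%).

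The 3 groups could also be read by overlap alone. Psma5 and Psmb2 were the 2 members for which every Myc lymphoma lay above every vector lymphoma, where 5.12% of all genes did so. Within the earlier runs 9 members did, Psma5, Psmb2, Psmb5, Psmd1, Psmd2, Psmd3, Psmd9, Psmd13 and Psme3 (background 9.75%). Over normal B cells the number was 22 of 39 (background 13.1%), with 8 in the core, 12 in the regulatory particle, Psmd9 and Psme3. It was 23 within the earlier runs (background 14.1%). For vector lymphomas over normal B cells the earlier runs, with 2 samples against 3, had 15 of 39 members with every vector lymphoma above every normal sample, 10 of them among the 17 of the regulatory particle and 4 in the beta ring, where 22.5% of all genes lay so; 1 member lay below.

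The immune counterparts of the catalytic subunits were not called. Psmb8, which takes the place of Psmb5, had 187 to 574 CPM (median 238) in Myc lymphomas, 223 to 398 CPM (median 274) in vector lymphomas and 206, 258, 257 and 217 CPM in normal B cells. Its log2 fold changes were -0.11 ± 0.21, adjusted p = 0.68 over vector lymphomas and 0.20 ± 0.25, adjusted p = 0.54 over normal B cells. Psmb10, which takes the place of Psmb7, had 69.9 to 288 CPM (median 101) in Myc lymphomas, 118 to 222 CPM (median 140.4) in vector lymphomas and 149, 103, 144 and 114 CPM in normal B cells. Its log2 fold changes were -0.34 ± 0.23, adjusted p = 0.24 over vector lymphomas and -0.067 ± 0.29, adjusted p = 0.87 over normal B cells. Neither was called, but without Myc replicate 5 both were lower than in vector lymphomas (-0.36, adjusted p = 0.035 for Psmb8 and -0.65, adjusted p = 0.0017 for Psmb10). Within the earlier runs they had -0.39, adjusted p = 0.55 for Psmb8 and -0.11, adjusted p = 0.91 for Psmb10. No row was found by name for Psmb9. Per kilobase of transcript, Psmb8 over Psmb5 was 1.39 to 2.86 in Myc lymphomas (median 1.82), 3.14 to 7.28 in vector lymphomas (median 4.63) and 4.12, 3.08, 4.09 and 3.46 in normal B cells. Psmb10 over Psmb7 was 0.379 to 1.04 in Myc lymphomas (median 0.939), 1.22 to 2.96 in vector lymphomas (median 1.90) and 2.70, 1.32, 2.13 and 1.83 in normal B cells. In both ratios every Myc lymphoma, replicate 5 included, lay below every other sample. The 2 vector lymphomas of the earlier runs had 4.70 and 4.74 for the first ratio and 1.22 and 1.48 for the second, so the groups did not overlap within those runs either. The ratios were chosen with the levels known and are given with no test, and they show unequal levels of the transcripts, not which of each pair differs. Psmb5 has 760.5 bases and Psmb8 1628, while Psmb7 has 1160 and Psmb10 1311. Over all genes the median log2 fold change for Myc over vector lymphomas was 0.85 under 1000 bases and 0.08 at 1500 to 2500. Values per kilobase do not remove such a trend between samples, and its part in the ratios was not tested.

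**Figure D5:**
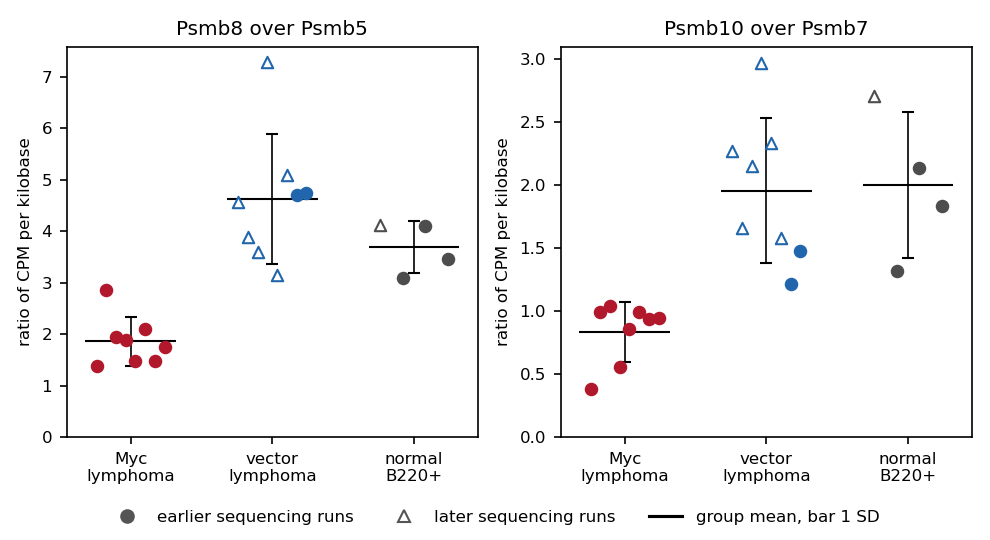
Ratio of CPM per kilobase of transcript (y axis) of the immune subunit Psmb8 over Psmb5 and of Psmb10 over Psmb7 in each sample of Myc lymphomas, vector lymphomas and normal B220+ cells (x axis); circles are earlier-run and triangles later-run samples, lines are group means and bars 1 SD. In both panels all 8 Myc lymphomas lie below all 12 other samples.

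Among the members themselves, levels per kilobase spanned 6.75-fold in the core of Myc lymphomas, 4.37-fold in vector lymphomas and 4.56-fold in normal B cells. Psmb3 was the highest core gene per kilobase in all 3 groups, with 229 CPM per kilobase in Myc lymphomas, 105 in vector lymphomas and 115 in normal B cells. Psmd8 was the highest regulatory particle gene in Myc lymphomas (175 CPM per kilobase), and Psmd4 was the highest in vector lymphomas (159) and in normal B cells (109). Psmc6 was the lowest regulatory particle gene in all 3 groups.

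Genes that serve the proteasome but lie outside the rule were followed through a list of 33. Of these 10 were called higher and 5 lower in Myc than in vector lymphomas, where 26.6% of all genes were called higher and 21.9% lower. In Myc lymphomas over normal B cells 10 were called higher and 3 lower, where 21.5% of all genes were called higher and 17.9% lower, and the shares of higher calls in the list were near the background in both comparisons. The list's median log2 fold changes were 0.051 over vector lymphomas and 0.28 over normal B cells. Of the 7 genes for assembly chaperones and inhibitors, 6 were called higher than in vector lymphomas. Psmg1, which starts the alpha ring, had 17.5 to 52.5 CPM (median 27.5) in Myc lymphomas, 9.999 to 15.4 CPM (median 11.8) in vector lymphomas and 10.8, 11.99, 12.9 and 10.1 CPM in normal B cells. All Myc lymphomas lay above all other samples. The log2 fold change was 1.32 ± 0.20, adjusted p = 2.2e-05 over vector lymphomas and 1.41 ± 0.25, adjusted p = 0.00026 over normal B cells. Psmg2, its partner, had no overlap either (1.23 ± 0.17, adjusted p = 1.1e-05 over vector lymphomas and 1.123 ± 0.22, adjusted p = 0.00055 over normal B cells). Both were called over vector lymphomas with the run term (adjusted p = 0.0055 and 0.006) and not within the earlier runs alone (adjusted p = 0.08 and 0.099). Psmg4 had 1.89 ± 0.33, adjusted p = 0.00012 over vector lymphomas, and Pomp, which matures the core particle, 0.95 ± 0.27, adjusted p = 0.0067 (0.36, adjusted p = 0.67 within the earlier runs). The deubiquitinases that bind the regulatory particle were higher too, Usp14 with 0.92 ± 0.14, adjusted p = 2.1e-05 and Uchl5 with 1.07 ± 0.17, adjusted p = 3.6e-05; in both all Myc lymphomas lay above all other samples.

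Other genes of the pathway differed in the opposite direction or split. The shuttle proteins Ubqln1 and Ubqln2, which carry ubiquitylated proteins to the base, were lower in Myc than in vector lymphomas (-0.51 ± 0.14, adjusted p = 0.0047 and -0.91 ± 0.18, adjusted p = 0.00033). Rps27a, which encodes ubiquitin fused to a ribosomal protein, was higher in Myc than in vector lymphomas (1.71 ± 0.38, adjusted p = 0.001). In the earlier runs alone it had 1.05, adjusted p = 0.39, and reads of such a gene can be shared with pseudogenes. Of 7 regulators of proteasome gene transcription, 0 were higher and 3 lower in Myc than in vector lymphomas. Nfe2l1, the factor that raises proteasome genes when the proteasome is inhibited, had 30.5 to 101 CPM (median 88.1) in Myc lymphomas, 108 to 219 CPM (median 203) in vector lymphomas and 181, 119.8, 120.5 and 119 CPM in normal B cells. Every Myc lymphoma lay below every other sample, and the log2 fold change was -1.15 ± 0.21, adjusted p = 0.00016 over vector lymphomas and -0.71 ± 0.25, adjusted p = 0.026 over normal B cells. Among earlier-run samples it was -0.47, adjusted p = 0.42 over vector lymphomas and -0.51, adjusted p = 0.19 over normal B cells. Its partners Maff and Mafk were lower too (-3.15 ± 0.59, adjusted p = 0.00024 and -1.119 ± 0.29, adjusted p = 0.0038 over vector lymphomas), and neither was called within the earlier runs. Among earlier-run samples 0 of the 33 genes were called higher (background 2.97%) and 0 lower over vector lymphomas. Over normal B cells 7 were called higher there (background 12.7%) and 0 lower.

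The members' promoters were read for the 2 sequences through which such factors are known to act: TGACNNNGC, the core of the site for Nfe2l1 with a small Maf protein, and CACGTG, the palindromic site for Myc with Max. Both strands were searched in the 250 bases before each start, from RefSeq on GRCm38.p6, where 33 of 40 members had an entry. TGACNNNGC occurred in 5 of 33 members (15.2%; Psmb5, Psmb6, Psmc6, Psmd9 and Psmd12), against 11.5% of 27025 genes, and CACGTG in 3 of 33 (9.09%; Psma4, Psmd9 and Psme3), against 6.86% of genes. The 2 sequences do not overlap in Psmd9, the 1 member with both. A match is a string of letters, not a measured site. The windows below show the matches in capitals, 5′ to 3′ on the gene's strand: 2 catalytic subunits with the first sequence, Psmd9 with both, and Psme3 and Psma4 with the second.
Psmb5, chr14:54618003-54618072, minus strand: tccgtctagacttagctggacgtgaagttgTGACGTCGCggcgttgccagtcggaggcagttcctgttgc
Psmb6, chr11:70525318-70525356, plus strand: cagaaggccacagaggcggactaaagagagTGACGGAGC
Psmd9, chr5:123228109-123228189, plus strand: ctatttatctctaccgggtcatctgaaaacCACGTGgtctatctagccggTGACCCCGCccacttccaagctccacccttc
Psme3, chr11:101316139-101316208, plus strand: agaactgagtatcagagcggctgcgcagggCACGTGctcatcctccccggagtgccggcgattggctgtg
Psma4, chr9:54950689-54950758, plus strand: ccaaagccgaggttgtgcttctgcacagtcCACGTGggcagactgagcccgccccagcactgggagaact
Counted from the start, the matches begin at -47 in Psmb5, -9 in Psmb6, -44 in Psme3 and -140 in Psma4, and in Psmd9 at -51 for CACGTG and -31 for TGACNNNGC. Psmd9 and Psme3 were called higher in both comparisons. Psma4 was called over vector lymphomas alone (0.50 ± 0.19, adjusted p = 0.033), and not there without Myc replicate 5 (0.33, adjusted p = 0.078). Over normal B cells Psma4 had 0.47 ± 0.24, adjusted p = 0.12. Psmd8 and Psma5, with larger differences over vector lymphomas than Psmd9, hold neither sequence in this window. Psmb5 and Psmb6 also had larger differences than Psmd9 and hold TGACNNNGC, and Psmb2 had no promoter entry. Psmb5, Psmb6 and Psmd12 were called higher in both comparisons, and Psmc6, which also holds TGACNNNGC, in neither. Whether a match goes with the size of a difference was not tested.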

How the data were processed

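RNA from 20 samples was sequenced on Ion Proton instruments. The authors deposited raw read counts per Ensembl gene; per the submitters' processing notes the builds were mm9 and NCBIM37 and the tools HTSeq, Picard 1.119 and BWA 0.7.5a. Whether counting used strand is not stated. The 5 lines that name no gene were left out. Gene names and transcript lengths came from GENCODE vM21, which matched 32897 of 37620 identifiers. From the deposited counts, edgeR 4.0.16 (R 4.3.3, limma 3.58.1) kept 17824 genes with filterByExpr, scaled by TMM and fitted 1 quasi-likelihood model to the 3 groups; p-values were adjusted by Benjamini-Hochberg over all genes tested, and a call is an adjusted p under 0.05. Errors on log2 fold changes are SE and the 3 comparisons share samples. The fit was tested on simulated data with no difference between sequencing runs and no outlying sample, so that test does not bear on either. Named members follow a written list plus the largest and smallest differences in each comparison; Psma4, Psmb1, Psmc3 and the pathway genes with values were chosen after their values were seen. Immune-subunit ratios are of CPM per kilobase. Alternatives were RLE size factors, no scaling, no filter, DESeq2 1.42.0, fits of 2 groups, a run term, the title number as a block, earlier runs only and leaving out each sample. Reads with more than 1 alignment were tallied apart from genes, so near-identical copies are uncertain. Members and lists were chosen with earlier results of these data known. Promoter sequences are from RefSeq (GRCm38.p6). No row was found by name for Psmb9 or Paaf1. Some genes of the marker and pathway lists are not reported here.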

Additional observations from a re-analysis of the deposited data

Results flagged for a closer look

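Single samples stood far from the rest of their group in 33 of 129 groups of values examined, one group of values being a member or a sum in 1 kind of sample; chance alone gives such a gap in about 1 in 20 groups, and the genes are not independent. Of these 20 belonged to Myc replicate 5, the highest Myc lymphoma in each. Its levels in CPM were Psma2 289.9, Psma5 140.2, Psma6 301, Psma7 479, Psmb1 608, Psmb2 216, Psmb3 408, Psmb4 493.1, Psmb5 180.3, Psmb6 336, Psmc4 230.5, Psmc5 202, Psmd4 312, Psmd8 689, Psmd9 127, Psmd10 51.7, Psme1 751 and Psme2 302. Its core sum was 4214 CPM, where the next Myc lymphoma had 2003 CPM, and its core to regulatory particle ratio 1.19, where the next had 0.89. In that library 40.3% of all tallied reads, those not aligned included, had more than 1 alignment, against 22.2 to 35.2% in the other Myc lymphomas. The part of this in its levels was not tested.

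Vector replicate 7 was the highest vector lymphoma, with CPM of Psma3 70.5, Psmc2 92.7, Psmd6 69.6, Psmd12 70.7 and Psmd10 37.0. Vector replicate 3 stood apart with Psmc5 105 and Psmd13 108 CPM. Myc replicate 1 had 245 CPM of Psmd1 and Myc replicate 7 had 1.90 CPM of Psma8. Among normal B cells, replicate 4 was low with Psma4 63.5 and Psmd5 37.6 CPM, replicate 1, the later-run sample, was low with Psmd8 67.6 CPM, and replicate 2 was high with Psma8 0.619 CPM.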

How the results depend on the processing

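The members called higher in Myc over vector lymphomas numbered 26, with 25 under RLE size factors, 26 by DESeq2, 23 without scaling, 21 without the filter and 24 in a fit of those groups alone, but 9 with the run term, 1 within the earlier runs and 4 within the earlier runs without Myc replicate 5. Over normal B cells they numbered 26, and 19 to 27 under all alternatives. Leaving out 1 sample at a time gave 21 to 27 higher and 0 to 1 lower for Myc over vector lymphomas (0 without Myc replicate 1, 1 without Myc replicate 5), 23 to 27 higher over normal B cells, and 0 to 1 higher for vector lymphomas over normal B cells, where a fit of the 2 groups alone gave 3. Calls lost most often in that way were those of Psma4, Psmc5, Psmd7 and Psmd14. The gap between the core and regulatory particle medians (log2) was 0.22 with the run term, 0.20 within the earlier runs and 0.035 there without Myc replicate 5 for Myc over vector lymphomas, and 0.033 in that last setting for Myc lymphomas over normal B cells. For vector lymphomas over normal B cells the gap was 0.036 within the earlier runs (-0.23 in all samples), and the median of the members 0.28 within the earlier runs and -0.074 without scaling. That setting moved the median of all genes by over 0.1 for comparisons with normal B cells, to -0.11 for Myc lymphomas and -0.18 for vector lymphomas. The mean core to regulatory particle ratio was 1.27 in Myc lymphomas, 0.894 in vector lymphomas and 1.07 in normal B cells with sums per kilobase, and 1.01 in Myc lymphomas, 0.732 in vector lymphomas and 0.856 in normal B cells from mean log2 CPM; within the earlier runs vector lymphomas had 0.764. The Myc transcript in vector lymphomas over normal B cells ranged over -1.24 to -0.79 with 1 sample left out, and passed the threshold without vector replicate 5. The cause of these shifts was not tested. Numbers that end the sample titles recur across groups, but also within a group, so they define no pairs and no label says that they mark a shared batch. With that number as a replicate block, 20 members were called higher in Myc over vector lymphomas and 25 over normal B cells, all among the 26 of each comparison, and 0 for vector lymphomas over normal B cells. The block and the settings that leave Myc replicate 5 out of the earlier runs were added after seeing the data. Low counts limit Psma8 and Psmb11 alone. For Myc over vector lymphomas, values that changed sign were as follows. Without scaling, the log2 fold change was Psmd11 -0.029, Psme1 -0.039 and Psme2 -0.071. Without the filter, the log2 fold change was Psmd11 -0.034 and Psme2 -0.022. With the run term, the log2 fold change was Psmd4 0.11. With earlier runs alone, the log2 fold change was Psmd10 -0.054 and Psmd4 0.15. With earlier runs alone and no Myc replicate 5, the log2 fold change was Psma3 -0.057, Psmd10 -0.27, Psme1 -0.13 and Psme2 -0.17. With the replicate block, the log2 fold change was Psmd11 -0.026, Psme1 -0.076 and Psme2 -0.13. For Myc lymphomas over normal B cells, values that changed sign were as follows. Without scaling, the log2 fold change was Psma3 -0.026, Psmd11 -0.10, Psme2 -0.18 and Psme4 -0.055. With earlier runs alone and no Myc replicate 5, the log2 fold change was Psme2 -0.20. For vector lymphomas over normal B cells, values that changed sign were as follows. Without scaling, the log2 fold change was Psmb5 -0.12, Psmc6 -0.14, Psmd11 -0.074 and Psme2 -0.11. Without the filter, the log2 fold change was Psmb2 0.0087. With the run term, the log2 fold change was Psma7 0.17, Psma8 0.18, Psmb2 0.34, Psmc6 -0.011, Psmd10 0.19 and Psmd11 -0.063. With earlier runs alone, the log2 fold change was Psma3 0.15, Psma7 0.34, Psmb2 0.61, Psmd10 0.44, Psmd11 -0.076, Psme2 -0.017 and Psme3 -0.066. With RLE size factors, the log2 fold change was Psmb2 0.016. By DESeq2, the log2 fold change was Psmb2 0.016. Leaving out 1 sample at a time, the log2 fold changes that changed sign ranged over Psmd11 -0.032 to 0.055, Psme1 -0.22 to 0.16 and Psme2 -0.23 to 0.14 for Myc over vector lymphomas, Psme2 -0.17 to 0.18 for Myc lymphomas over normal B cells, Psmb2 -0.18 to 0.10, Psmc6 -0.037 to 0.17, Psmd10 -0.24 to 0.035, Psmb5 -0.092 to 0.22, Psme2 -0.025 to 0.14, Psma7 -0.24 to 0.0086 and Psma8 -0.58 to 0.49 for vector lymphomas over normal B cells.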
